A study of Saccharomyces cerevisiae with 6 samples.

Results

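Yeast cells carrying a deletion of SSY1 (ssy1KO) were compared directly with cells carrying the natural ssy1T9 allele of that gene on 2 dual-colour arrays out of the 6 arrays of the study. These are the arrays whose titles pair ssy1T9 with ssy1KO, named here T9/KO array 1, with ssy1T9 in Cy5, and T9/KO array 2, with ssy1KO in Cy5. The other 4 arrays set each mutant against wt, also once in each dye. All 3 strains are in the S288C laboratory background per the series' design text, so the groups differ, as far as the labels say, in the SSY1 allele alone. The labels give no growth medium, culture stage, mating type, auxotrophic markers or number of clones, and they do not say what ssy1T9 changes. Nor do they say whether the arrays of a pair were made from separate cultures or extracts; every p-value here therefore rests on array-to-array spread, possibly of technical origin alone. The comparison asks how far the natural allele and the loss of the gene differ in the transcripts they leave behind, and it is described across the 5711 named genes of the table.

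SSY1 encodes a plasma membrane protein that resembles an amino acid permease but acts as a sensor of external amino acids, together with Ptr3 and Ssy5. When amino acids are sensed, the protease Ssy5 cleaves the latent transcription factors Stp1 and Stp2, which enter the nucleus and induce amino acid and peptide permease genes. Pyrimidine synthesis, which enters the results below, runs from carbamoyl aspartate through dihydroorotate and orotate to uridine monophosphate, and the transcription factor Ppr1 induces several of its genes when intermediates build up.

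Values are log2 ratios of ssy1KO over ssy1T9, with the median over named rows set to 0 on each array, so a positive value means a higher transcript level in ssy1KO relative to the typical gene. The log base is assumed. The direction is the one in which SSY1 lies lower in ssy1KO, and it is therefore likely rather than stated. Beside both T9/KO arrays, each gene has an estimate that uses no T9/KO array: the ratio of ssy1KO over wt minus the ratio of ssy1T9 over wt, called here the path through wt. A gene is called higher or lower when limma's two-sided test of ssy1KO against ssy1T9, fitted to all 6 arrays with a dye term, gives a Benjamini-Hochberg adjusted p under 0.05 over all genes. Errors are standard errors (SE) of that fit unless stated.

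The mutants differed in few transcripts. By limma, 18 of 5711 genes (0.315%) were called, 8 higher in ssy1KO (0.140%) and 10 lower (0.175%). A mean of at least 2-fold in either direction over both T9/KO arrays was reached by 5 genes, URA3, SSY1, URA1, MDH2 and RPF1, and 1.5-fold by 8, with TIM9, CHA1 and FUI1. RPF1 owed its mean to array 1, where it read -2.55, against -0.15 on array 2. For 5692 genes (99.7%) the 95% confidence interval of the fit lay inside 1.5-fold in either direction, each interval taken on its own. Before adjustment, 311 genes (5.45%) had a p under 0.05. Without KO/wt array 1 or without T9/KO array 1 the count of called genes was 7, and without T9/wt array 1 it was 11. The 7 genes called with any 1 of the 6 arrays left out were URA3, SSY1, URA1, MDH2, TIM9, CHA1 and FUI1.

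**Figure D1:**
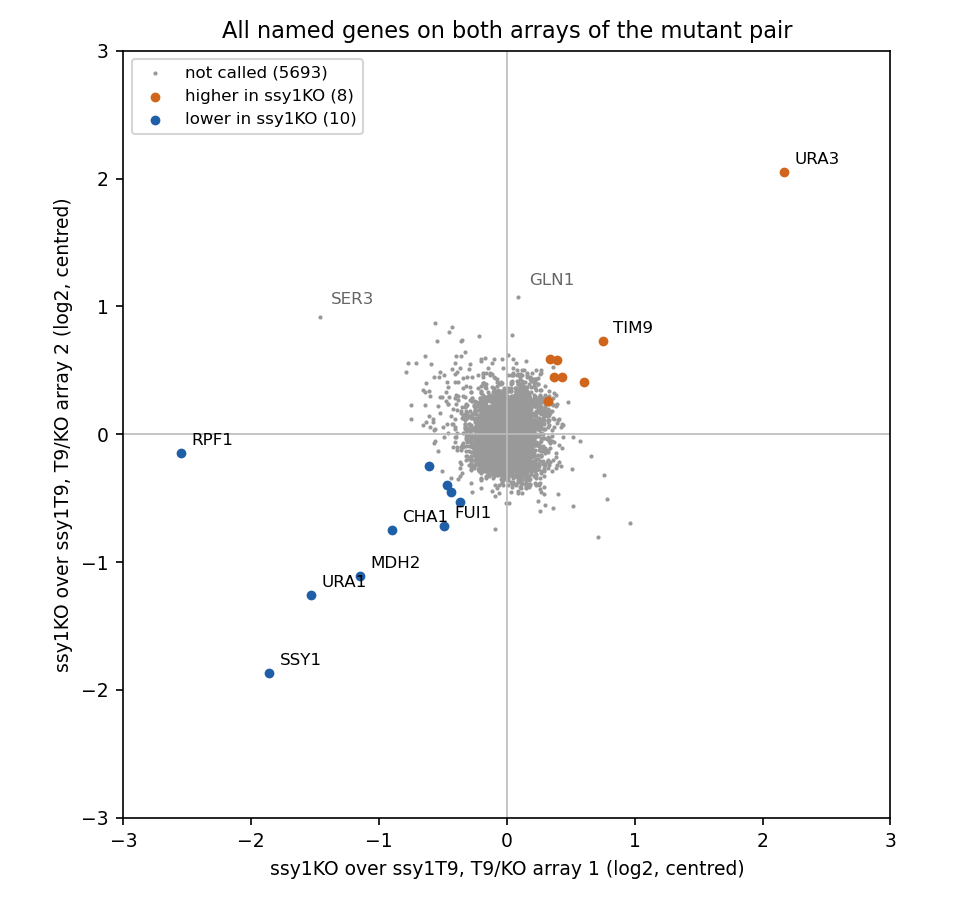
Each point is 1 of 5711 genes, placed by its log2 ratio of ssy1KO over ssy1T9 on T9/KO array 1 (horizontal axis) and T9/KO array 2 (vertical axis), both centred. Called genes are coloured: URA3 stands alone at the upper right, SSY1 at the lower left, and RPF1 is low on array 1 alone, while most of the 5693 genes not called lie near 0, with exceptions such as SER3 (-1.46 and 0.92) and GLN1 (0.09 and 1.07).

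Across all genes the T9/KO arrays had a narrow spread. The mean of both arrays had a standard deviation (SD) over genes of 0.122, against 0.312 for ssy1KO over wt and 0.305 for ssy1T9 over wt. The difference between the T9/KO arrays divided by 2, which holds dye and array error and no strain difference, had an SD of 0.119. The spread over genes was thus about as wide as the spread between arrays. The means of 90.2% of genes lay between -0.17 and 0.19.

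Genes of pyrimidine synthesis and uptake held 4 of the 18 calls. URA3, encoding orotidine phosphate decarboxylase, the last step to uridine monophosphate and a common selection marker, read 2.17 on T9/KO array 1 and 2.05 on array 2. The readings differ little, and the level was 4.46-fold higher in ssy1KO (log2 2.16, SE 0.08, adjusted p = 1.9e-16). On the arrays with wt, URA3 read 2.14 and 2.18 in ssy1KO and -0.12 and -0.06 in ssy1T9, so the arrays of the mutants did not overlap. The path through wt gave 2.25 (SE 0.13).

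URA1, encoding dihydroorotate dehydrogenase, an earlier step of the same pathway, read -1.53 and -1.26 on the T9/KO arrays and was 2.48-fold lower in ssy1KO (log2 -1.31, SE 0.09, adjusted p = 6.5e-11). Against wt, URA1 read -1.75 and -1.11 in ssy1KO but -0.34 and -0.23 in ssy1T9, again without overlap. URA4, encoding dihydroorotase, the step before URA1, read -0.37 and -0.53 (fit -0.49, SE 0.08, adjusted p = 0.00111). Against wt URA4 was at -0.72 in ssy1KO and -0.24 in ssy1T9 by the fit. Its call was kept with 4 of the 6 arrays left out in turn, and it was lost without KO/wt array 1 or T9/KO array 1. FUI1, encoding the uridine permease, read -0.49 and -0.72 and was 1.53-fold lower in ssy1KO (SE 0.08, adjusted p = 2.6e-05). FUI1 lay below wt in both strains, at -1.72 in ssy1KO and -1.11 in ssy1T9. The 3 genes that were lower thus lay below wt in both strains and farther in ssy1KO, while URA3 alone was higher. In ssy1T9 URA1 did not pass against wt (limma, adjusted p = 0.0896).

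The other 14 of 18 pyrimidine genes did not pass. Their means ran from -0.21 for URA2, encoding the enzyme of the first committed steps, to 0.15 for the cytosine and purine permease gene FCY2. URA2 read -0.24 and -0.18, on the same side as URA1 and URA4 (fit -0.16, adjusted p = 0.918). The orotate phosphoribosyltransferase genes URA5 and URA10, which act just before URA3, had means of -0.04 and 0.07. The regulator gene PPR1 had a mean of 0.10, reading -0.03 and 0.23. The uracil permease gene FUR4 and the salvage gene FUR1, encoding uracil phosphoribosyltransferase, both had readings on either side of 0. The list as a whole had a median of -0.04, against -0.01 over all genes.

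**Figure D2:**
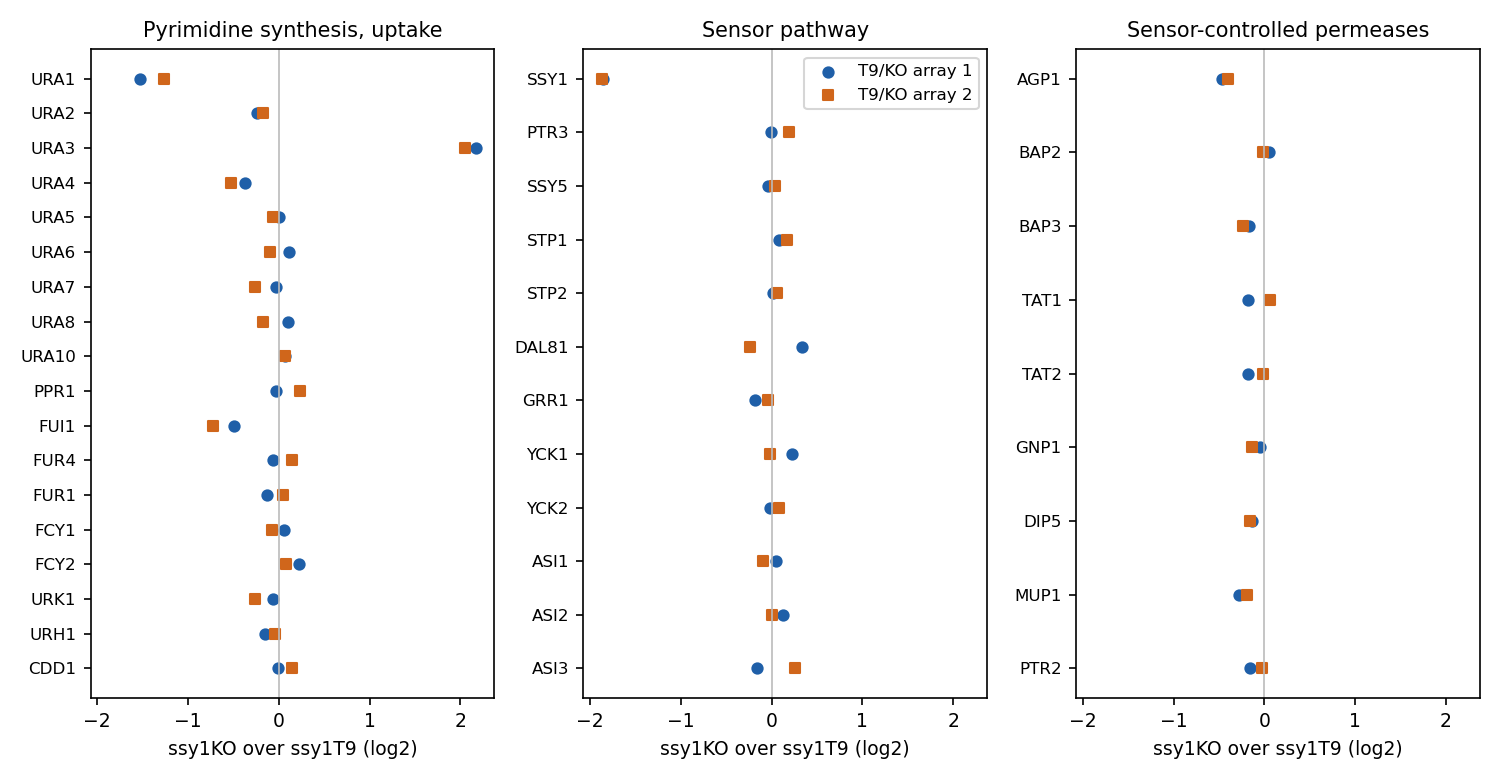
Log2 ratio of ssy1KO over ssy1T9 on T9/KO array 1 (circles) and array 2 (squares) for each gene of pyrimidine synthesis and uptake, the sensor pathway and the permeases the sensor controls. URA3 (2.17 and 2.05) and URA1 (-1.53 and -1.26) lie far from 0 on opposite sides, SSY1 (-1.86 and -1.87) is the only called sensor pathway gene, and among the permeases AGP1 lies lowest.

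SSY1 itself read -1.86 and -1.87 on the T9/KO arrays (fit -1.80, SE 0.09, adjusted p = 5.6e-14). Its sign was used to set the direction, so it is no check of the labels, but the size was not used: the path through wt gave -1.67 (SE 0.15). Against wt SSY1 read -1.65 and -1.11 in ssy1KO and 0.22 and 0.36 in ssy1T9. The transcript of the natural allele was thus read at or above the level of wt, and that of the deletion strain below it; the part of the gene that the spot covers is not stated. In the sensor pathway 1 of 12 genes was called, and it was SSY1. The partner gene PTR3 read -0.01 and 0.19, and SSY5, encoding the protease, -0.04 and 0.04. STP1 read 0.08 and 0.17, and STP2 0.02 and 0.06. DAL81, encoding a co-activator of the permease genes, read 0.33 and -0.24, with opposite signs on the arrays. The remaining genes, for the ubiquitin ligase subunit Grr1, the casein kinases Yck1 and Yck2 and the inner nuclear membrane proteins Asi1, Asi2 and Asi3, had means between -0.11 for GRR1 and 0.10 for YCK1.

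Among the 9 permease genes that the sensor controls, 1 was called. AGP1, encoding a permease of broad amino acid specificity, read -0.47 and -0.40 and was 1.32-fold lower in ssy1KO (fit -0.41, SE 0.08, adjusted p = 0.0117). Against wt AGP1 read -0.90 and -0.51 in ssy1KO and -0.56 and -0.16 in ssy1T9, so these ranges overlap. The array with the lower reading of each strain is the one with wt in Cy5, and within each dye order ssy1KO read lower. Its call was kept with 2 of 6 arrays left out in turn, and it was lost without KO/wt array 1, T9/wt array 1 or either T9/KO array. The other 8 genes did not pass and had means between -0.24 for the methionine permease gene MUP1 and 0.02 for the branched-chain amino acid permease gene BAP2.

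Those 8 genes lay far below wt in both strains and close to each other. BAP3, BAP2's paralog, read -0.17 and -0.23 between the mutants, with a fit of -0.15 (95% confidence interval -0.31 to 0.02), where ssy1KO and ssy1T9 were at -3.26 and -3.11 against wt. TAT1, a tyrosine and tryptophan permease gene, read -0.18 and 0.06, with a fit of -0.01 (-0.20 to 0.18). The interval for BAP2 ran from -0.18 to 0.20. DIP5, the dicarboxylic amino acid permease gene, read -0.14 and -0.16 on the T9/KO arrays and -0.53 (SE 0.13) on the path through wt (fit -0.28, adjusted p = 0.43). In 7 of the 9 permease genes both T9/KO arrays lay below 0 (77.8%), against 25.4% of all genes, and the median of the list was -0.10; on the path through wt that median was -0.01. The list's shift was not tested.

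CHA1 and MDH2 were the other large differences in metabolism. CHA1, encoding the serine and threonine deaminase of amino acid breakdown, read -0.90 and -0.75 on the T9/KO arrays and was 1.66-fold lower in ssy1KO (SE 0.09, adjusted p = 1.4e-05). The path through wt gave -0.55 (SE 0.15). The call of CHA1 was lost without a dye term and with the arrays with wt alone. Against wt CHA1 read -3.55 and -2.80 in ssy1KO and -2.98 and -2.27 in ssy1T9. The arrays with wt overlap for this gene, and the array with the lower reading of each strain is the one with wt in Cy5. In the list of 17 serine, glycine and one-carbon genes CHA1 was the only call. MTD1, encoding a cytosolic methylenetetrahydrofolate dehydrogenase, read 0.33 and 0.24 without passing (adjusted p = 0.853). SER3, encoding a phosphoglycerate dehydrogenase of serine synthesis, read -1.46 on array 1 and 0.92 on array 2, the widest disagreement among the 11 genes that exceeded 0.5 on both arrays in opposite directions.

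MDH2, encoding the cytosolic malate dehydrogenase used when glucose is made from smaller carbon compounds, read -1.15 and -1.11 and was 2.04-fold lower in ssy1KO (log2 -1.03, SE 0.08, adjusted p = 4.5e-09). Against wt MDH2 read -1.87 and -1.63 in ssy1KO and -0.96 and -0.89 in ssy1T9, without overlap. It was the only call among 28 measured genes of the citrate cycle, malate metabolism and the retrograde response. The next largest mean there was -0.33 for LSC2, encoding a succinyl-CoA ligase subunit, which read -0.28 and -0.38 (adjusted p = 0.673). Of 11 genes of gluconeogenesis and the glyoxylate cycle 0 were called by limma, and 0 had an unadjusted p under 0.05: FBP1, encoding fructose bisphosphatase, read 0.14 and 0.18, and ICL1, encoding isocitrate lyase, -0.05 and -0.19.

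TIM9, encoding a small chaperone of mitochondrial protein import, read 0.75 and 0.73 and was 1.73-fold higher in ssy1KO (SE 0.08, adjusted p = 5.0e-07). In the R64 reference gene order TIM9 is the immediate neighbour of URA3. GEA2, encoding a guanine nucleotide exchange factor of vesicle transport and the neighbour of URA3 on its other side, read 0.28 and 0.26 (fit 0.30, SE 0.08, adjusted p = 0.187). The path through wt gave 0.88 (SE 0.13) for TIM9 and 0.36 for GEA2. Within 5 genes to each side of URA3, the 7 other measured genes had means between 0.05 and 0.155, and 0 of them were called. On the path through wt those 7 genes ran from -0.07 for YEL025C to 0.42 for SNU13, 5 places from URA3, so GEA2 was not above all of them on that estimate, nor on T9/KO array 2 alone.

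Around SSY1, the 9 measured neighbours within 5 genes to each side had means between -0.08 and 0.245, and 0 were called. The direct neighbours SAC3, a gene of messenger RNA export, and ACL4, encoding the chaperone of a ribosomal protein, read -0.15 and 0.12, and 0.09 and 0.13. HOM2, encoding aspartate semialdehyde dehydrogenase, read -0.08 and 0.18, and NBP2 read 0.09 and 0.00.

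**Figure D3:**
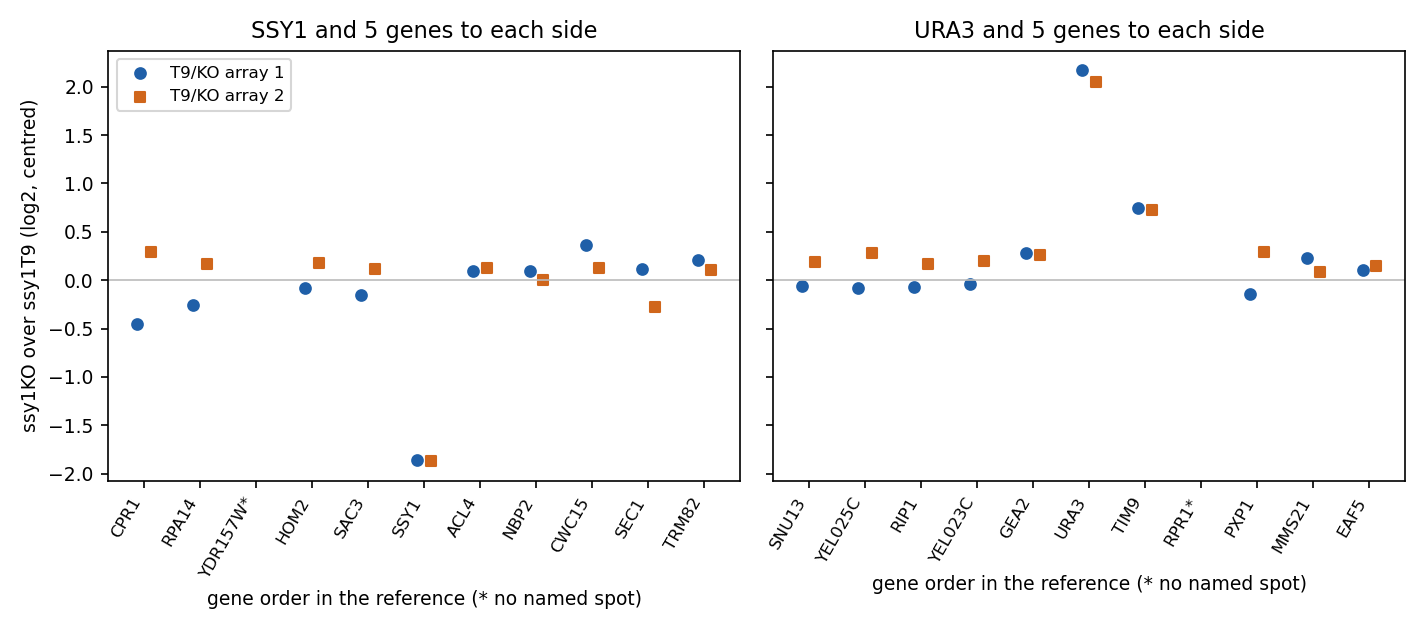
Log2 ratio of ssy1KO over ssy1T9 on T9/KO array 1 (circles) and array 2 (squares) for SSY1 (left) and URA3 (right) with 5 genes to each side in reference gene order; a star marks a gene with no named spot. SSY1 is low (-1.86 and -1.87) between neighbours near 0, and URA3 is high beside TIM9 (0.75 and 0.73), while GEA2 (0.28 and 0.26) lies within the range of the other genes on array 2.

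The remaining 9 calls were of transporters, biosynthesis, cell surface and other genes, and the sizes of 8 of them were small. PHO89, encoding a sodium-coupled phosphate transporter, read 0.39 and 0.58 (fit 0.49, adjusted p = 0.00111). HXT2, a glucose transporter gene, read 0.37 and 0.45 (fit 0.42, adjusted p = 0.00995). HEM3, encoding porphobilinogen deaminase of heme synthesis, read 0.34 and 0.59 (fit 0.49, adjusted p = 0.00422). These 3 genes were below wt in both strains by the fit, and farther below it in ssy1T9: PHO89 was at -0.71 in ssy1KO and -1.19 in ssy1T9, HEM3 at -0.81 and -1.30, and HXT2 at -0.14 and -0.56. In ssy1KO HXT2 did not pass against wt (limma, adjusted p = 0.235). On the arrays with wt HXT2 read -0.37 and 0.12 in ssy1KO and -0.82 and -0.33 in ssy1T9, so these ranges overlap.

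The same order held for COS12, a member of a family of membrane proteins, and HAC1, which encodes the transcription factor of the unfolded protein response. COS12 read 0.60 and 0.41 (fit 0.50, adjusted p = 0.00337), with -0.42 in ssy1KO and -0.92 in ssy1T9 against wt. HAC1 read 0.43 and 0.45 (fit 0.40, adjusted p = 0.0354), with -0.47 and -0.88. On the arrays with wt HAC1 read -0.83 and -0.19 in ssy1KO and -0.85 and -0.83 in ssy1T9, so these ranges overlap. COS genes are similar to each other, so the spot may take signal from relatives. SRL3 read 0.32 and 0.26 (fit 0.38, adjusted p = 0.0302) and was above wt in both strains, at 1.01 in ssy1KO and 0.63 in ssy1T9.

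Lower in ssy1KO were SED1 and YRO2. SED1, encoding a major cell wall glycoprotein, read -0.44 and -0.45 (fit -0.45, adjusted p = 0.00258) and was at -1.57 in ssy1KO and -1.12 in ssy1T9 against wt. YRO2, encoding a plasma membrane protein, read -0.61 and -0.25 (fit -0.40, adjusted p = 0.0117), at -0.17 in ssy1KO and 0.23 in ssy1T9. Leaving out 1 array at a time, PHO89, SED1 and HEM3 kept their calls with 4 of 6 arrays, COS12 and YRO2 with 3, HXT2 with 2, HAC1 with 1 and SRL3 with 0. KO/wt array 1 and T9/KO array 1 were the arrays without which all 8 lost them.

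RPF1, encoding a nucleolar protein of large ribosomal subunit assembly, was far from 0 on 1 array only. It read -2.55 on T9/KO array 1 and -0.15 on array 2, and -0.16, -0.05, -0.22 and 0.12 on the arrays with wt. The fit gave -0.92 with an SE of 0.21 (adjusted p = 0.0464), the SE being the widest among the called genes, and the path through wt gave -0.05. Its call was kept with 2 of 6 arrays left out in turn, without T9/wt array 2 or T9/KO array 2, and under 4 of 16 alternatives in all.

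**Figure D4:**
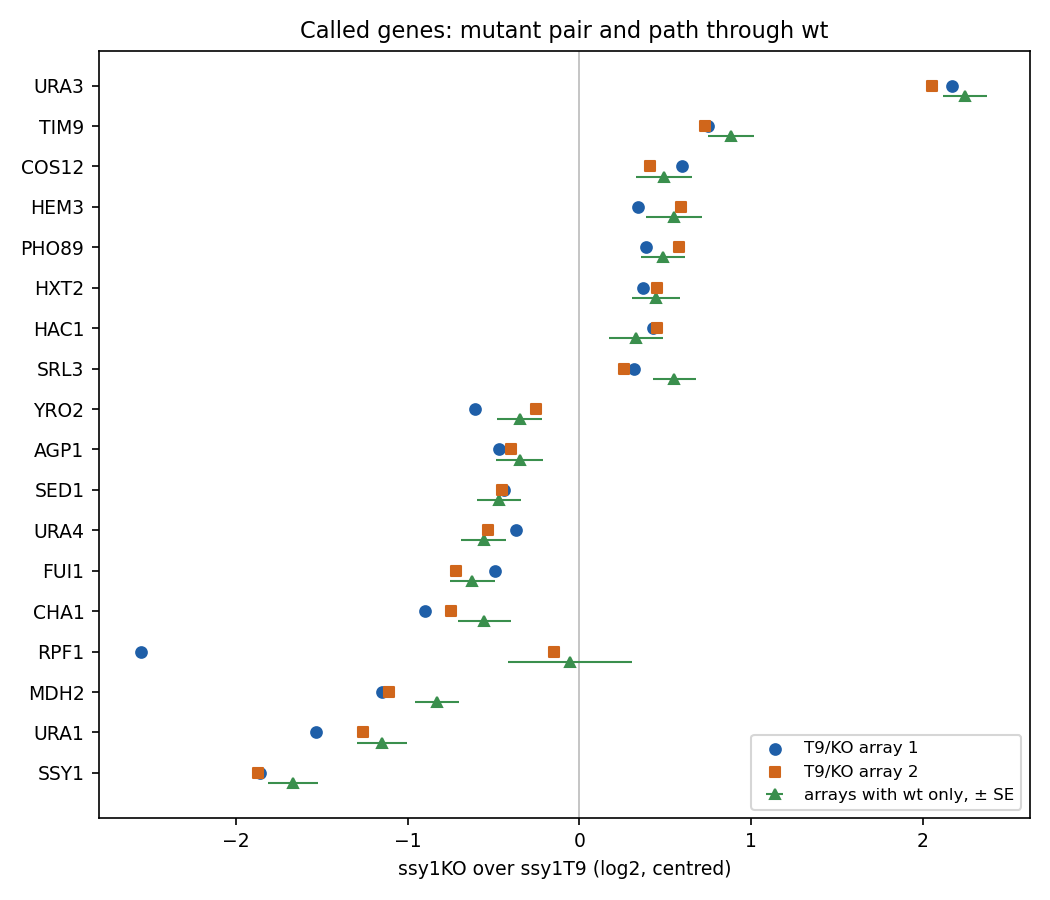
The 18 called genes with their log2 ratio of ssy1KO over ssy1T9 on T9/KO array 1 (circles), on array 2 (squares) and from the arrays with wt alone (triangles, with 1 SE to each side). For 17 genes the estimates lie on one side of 0 with the bars clear of it, while for RPF1 array 1 (-2.55) stands apart from the other estimates. All of these arrays entered the fit that chose the genes, so a shared side is favoured by that choice.

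Set against wt by the fit, 12 of the 18 called genes lay farther from wt in ssy1KO and 6 farther in ssy1T9. Both strains were compared with the same wt, and the share over all genes was not worked out. The 6 were PHO89, HXT2, HEM3, COS12, HAC1 and YRO2. RPF1 counts among the 12 through fitted levels of -0.54 in ssy1KO and 0.38 in ssy1T9, which include its -2.55 from T9/KO array 1. Its single values against wt overlap: -0.16 and -0.05 for ssy1KO, beside -0.22 and 0.12 for ssy1T9. The widest gap between strains relative to wt was that of URA3, at 2.11 in ssy1KO and -0.04 in ssy1T9, followed by SSY1. CHA1 had the lowest levels in both strains, at -3.27 and -2.53.

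**Figure D5:**
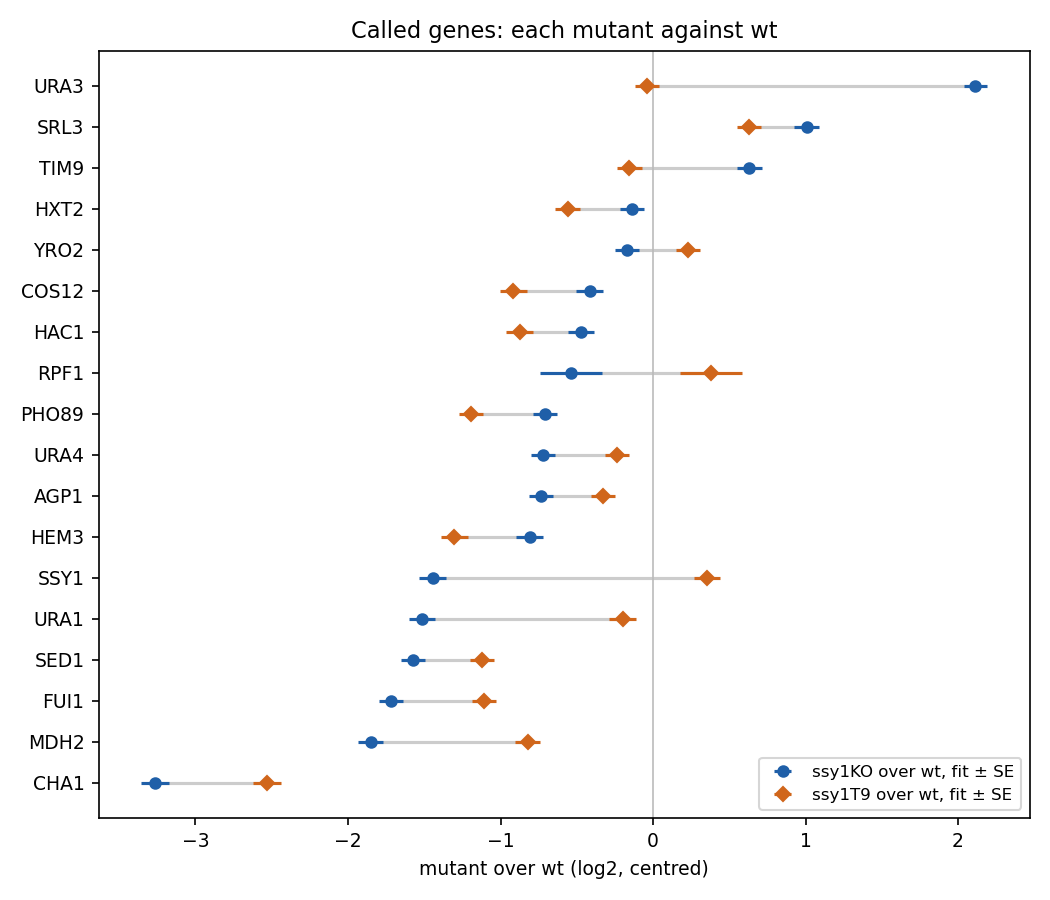
Log2 ratio over wt for the 18 called genes in ssy1KO (circles) and ssy1T9 (diamonds), from the fit to all 6 arrays, with 1 SE to each side; grey lines join the strains. CHA1, MDH2, FUI1 and SED1 are below wt in both strains and lower in ssy1KO, HEM3, PHO89, HAC1 and COS12 are below wt and lower in ssy1T9, and URA3 departs from wt in ssy1KO alone.

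The metabolic gene groups below left wt in both strains and held 0 calls between the strains. Over all genes 0.315% were called and 5.45% had an unadjusted p under 0.05, so 0 calls in lists this short say little. Nitrogen catabolite repressed genes, kept low while a good nitrogen source lasts, had 0 calls by limma among 25 measured (3 at an unadjusted p under 0.05), with a median of -0.03 between the mutants against medians of 0.33 in ssy1KO and 0.35 in ssy1T9 over wt. The count was also 0 for 28 genes of sulphate assimilation and methionine metabolism (3 at an unadjusted p under 0.05), with a median of -0.07 between the mutants and of 0.70 and 0.81 over wt. In branched-chain, arginine, histidine and lysine synthesis 0 of 12, 7, 7 and 9 measured genes were called, with 1, 0, 1 and 0 at an unadjusted p under 0.05. Within these groups the proline permease gene PUT4 read 0.22 and 0.41 (adjusted p = 0.595), the methionine-related permease gene SAM3 -0.35 and -0.30 (adjusted p = 0.575), and ILV3, encoding dihydroxyacid dehydratase, -0.19 and -0.25.

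General stress genes leaned lower and phosphate genes higher in ssy1KO on both arrays, by small amounts. Of 26 general stress genes 0 were called by limma (5 at an unadjusted p under 0.05), 15 lay below 0 on both T9/KO arrays and 1 above it on both; their median was -0.09, and -0.07 on the path through wt. PGM2, encoding phosphoglucomutase, read -0.18 and -0.28, GPH1, encoding glycogen phosphorylase, -0.20 and -0.20, and HXK1, a hexokinase gene, 0.24 and 0.21. Of 19 phosphate genes 1 was called, PHO89, while 11 lay above 0 on both arrays and 1 below it on both, with a median of 0.07 (0.16 on the path through wt). Examples were the acid phosphatase gene PHO11, at 0.16 and 0.45, SPL2, an inhibitor gene of low-affinity phosphate uptake, at 0.27 and 0.21, and PHM6, at 0.34 and 0.17; PHO11 and PHO12 are near-identical copies and may share signal. Over all genes 25.4% lay below 0 on both arrays and 24.5% above it on both, and the shifts of these lists were not tested.

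Hexose transport and chaperone genes lay close to all genes. Of 16 hexose transport and glucose sensor genes 1 was called, HXT2, with a median of 0.04; HXT3, the next in size, read -0.30 and -0.05. Of 15 heat shock and chaperone genes 0 were called by limma, and 0 had an unadjusted p under 0.05. HSP10, encoding a mitochondrial chaperonin subunit, read 0.30 and 0.29 on the T9/KO arrays but -0.14 (SE 0.13) on the path through wt.

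Cytosolic ribosomal protein genes read on opposite sides of 0 on the T9/KO arrays, by their median. Their median over 136 genes was -0.24 on T9/KO array 1 and 0.26 on array 2, which is above 0 as Cy5 over Cy3 on both, and the mean of both arrays had a median of 0.00; on the path through wt the median was 0.15. By limma 0 of these genes were called (17 at an unadjusted p under 0.05). Above 0 on both arrays lay 12 (8.82%) and below it 5 (3.68%), against 24.5% and 25.4% of all genes. RPL8B read 0.29 and 0.28, and RPL41B -0.75 and 0.12. TDH1, encoding an abundant glycolytic enzyme, spotted 33 times and chosen after its values were seen, had a mean of -0.58 (SD 0.18 over spots) on array 1 and 0.10 (SD 0.24) on array 2.

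Genes of mating type and other selection markers differed little between the strains. Of 6 genes expressed in a cells and 4 in alpha cells 0 were called by limma (0 and 0 at an unadjusted p under 0.05), with means between -0.17 for the pheromone exporter gene STE6 and 0.105 for ASG7; the a-factor gene MFA1 read 0.07 and 0.10. Of 8 genes often used as selection markers URA3 was the only call. LEU2, the next in size, read 0.25 and 0.03, LYS2 -0.33 and 0.11, and TRP1 0.04 and 0.17. Both mutants did differ from wt in these lists. The markers had medians over wt of 0.83 in ssy1KO and 0.72 in ssy1T9, with LEU2 at 2.37 and 2.20. Medians over wt were -0.42 and -0.35 for the alpha cell genes, and -0.02 and 0.065 for the a cell genes. The cause was not tested.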

How the data were processed

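Total RNA of 3 strains was hybridised on 6 dual-colour arrays in a closed loop, labelled with the Genisphere 3DNA system per the labels. The deposited values are 1 log ratio per spot and array, taken as log2 of Cy5 over Cy3; scanner, background correction, normalization, log base and direction are not stated. The deposited log2 columns had medians over named rows of -0.58 and -0.34 (KO/wt), -0.51 and -0.08 (T9/wt) and -0.39 and -0.33 (T9/KO). The platform annotation names a single gene for 6116 of 7744 rows and several genes for 0, and it leaves 1628 without a name here. By gene identifier, 6111 symbols were brought up to the R64 reference table. Array medians over named rows were set to 0, spots of a gene were averaged (5678 genes with 1 spot, 33 with more), and limma 3.58.1 in R 4.3.3 (lmFit, eBayes; 3 residual and 22.0 prior degrees of freedom) was fitted with a dye term and coefficients for both mutants. With a median SE of 0.08, precision is limited by the number of arrays. The T9/KO mean and the path through wt have their SEs from a fit that gives the T9/KO arrays a coefficient of their own, added after the data were seen. The fit was tested on simulated data with independent noise of the same size for every gene. That setting holds no single deviating arrays and no shared extracts, so it cannot speak to either. Gene lists come from textbook physiology; they and the compared strains were chosen with earlier results of these data known. Genes named are SSY1, every called gene, the 5 largest means of each sign not called, the pyrimidine, sensor and permease lists, neighbours of SSY1 and URA3, and up to 4 genes of each other list; any other is said to be chosen after its values were seen. Intensities, and with them detection limits, were not used here.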

Additional observations from a re-analysis of the deposited data

Results flagged for a closer look

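For 4 called genes the mutants read on opposite sides of wt on every array with wt. These arrays entered the fit that chose the genes, and the share over all genes was not worked out. The difference between the mutants was tested by the limma contrast over all 6 arrays. URA3 differed by 2.16 (2.11 in ssy1KO, -0.04 in ssy1T9 over wt) and SSY1 by -1.80 (-1.45 and 0.35). TIM9 differed by 0.79 (0.63 and -0.16) and YRO2 by -0.40 (-0.17 and 0.23). Against wt by limma, only SSY1 passed in both mutants. In ssy1T9 neither URA3 (adjusted p = 0.749) nor TIM9 (adjusted p = 0.163) passed, and in ssy1KO YRO2 did not (adjusted p = 0.118).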

How the results depend on the processing

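All 18 called genes kept their direction under all 16 alternatives, each of which reuses arrays that entered the calls. The 7 genes URA3, SSY1, URA1, MDH2, TIM9, CHA1 and FUI1 kept their calls with each array left out. The T9/KO arrays alone, with 1 residual degree of freedom, gave 0 calls by limma, 0 higher and 0 lower, with 241 genes at an unadjusted p under 0.05. Without a dye term 6 genes were called by limma, 2 higher and 4 lower, all among those 7, and CHA1 did not pass (adjusted p = 0.145). With a coefficient of its own for the T9/KO arrays, an alternative chosen after seeing the data, exactly those 7 genes were called, 2 higher and 5 lower. Without centring 13 were called, of which 5 higher. Leaving out 1 array gave 7 to 19 calls, 2 to 9 of them higher and 5 to 12 lower. The arrays with wt alone gave 22 calls, 6 of them shared with the 18; the cause was not tested. Other centrings, scaling of the arrays to one spread, robust shrinkage and single spots gave 17 to 21 calls. Each ratio pairs 2 strains on 1 array. Pairing across arrays by culture was not possible, because the labels do not say which arrays share a culture or extract. Signal over background is not used here, so a limit for dim spots cannot be set.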

Other observations

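Several genes that did not pass had means far from 0. GLN1, encoding glutamine synthetase, read 0.09 on T9/KO array 1 and 1.07 on array 2 (adjusted p = 0.595), so its mean rests on array 2. FIT2, a cell wall mannoprotein gene of siderophore retention, read 0.35 and 0.44 (adjusted p = 0.0905) and was called with centring over all rows, with arrays scaled to one spread and with robust shrinkage. Of 20 iron uptake genes 0 were called by limma (5 at an unadjusted p under 0.05). Above 0 on both arrays lay 7 (35%) and below it 1 (5%), against 24.5% and 25.4% of all genes. Over all genes 0.315% were called and 5.45% had an unadjusted p under 0.05. The list's shift was not tested. FIT3 read 0.23 and 0.23, and ENB1, a siderophore transporter gene, 0.12 and 0.28. DFG16, OSH7 and BLI1 had means of 0.45, 0.41 and 0.39. On the low side, ENA1, encoding a sodium pump with close copies in tandem, read -0.38 and -0.35 (adjusted p = 0.265). The Ty retrotransposon reading frames YCL019W and YER138C read -0.51 and -0.29, and -0.27 and -0.45; Ty copies share sequence, so neither spot can be tied to 1 copy. MYO3 and PET18 had means of -0.39 and -0.42. The purine genes ADE16 and ADE17, paralogs for the last steps of inosine monophosphate synthesis, read 0.38 and 0.31, and 0.34 and 0.18, while 0 of 13 measured purine genes were called by limma (2 at an unadjusted p under 0.05).

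MET3, encoding ATP sulphurylase and chosen after its values were seen, was at 2.30 on KO/wt array 1 but at -0.50 on array 2, while the T9/wt arrays gave 2.43 and 2.38 and the T9/KO arrays -0.10 and -0.13. KO/wt array 2 stands apart for this gene, and with the arrays with wt alone MET3 was called lower in ssy1KO. It was also called without T9/KO array 2.

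Between the mean of the T9/KO arrays and the path through wt, 0 of 5711 genes differed by limma after adjustment, with 260 at an unadjusted p under 0.05. The test can miss wide gaps: RPF1 did not pass with a gap of -1.30 (SE 0.44, adjusted p = 0.847). The count of 0 therefore does not show that the estimates match.

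The 1628 rows without a symbol were tested apart: 0 were called by limma, 80 had an unadjusted p under 0.05, and the lowest adjusted p was 0.0698. For 12 genes spotted 33 times, the SD over spots within a T9/KO array lay between 0.0795 and 0.236, and their means over both arrays between -0.24 and 0.14.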
